A study of Mus musculus with 2 samples.

Results

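The cytokine receptor chains described here are 10 genes of naive and memory CD4 T cells: Il7r, Il2rg, Il2rb, Il4ra, Il21r, Il6ra, Il6st, Il18r1, Ifngr1 and Il10ra. They were listed by name, as partners of the common gamma chain and other cytokine receptors of these cells, and each was read from the transcript cluster of highest mean that carries its symbol alone. This gave values for 9 of the 10, among 19938 genes measured in the same way; Il2rg, the common gamma chain itself, was not analysed here. The data came from 2 arrays, 1 for each of 2 groups of mouse spleen CD4 T cells. In the Taf7 knockout sample (Taf7 -/-) the cells carried a floxed and a null Taf7 allele together with the 8EIII-cre transgene. In the Taf7 heterozygous sample (Taf7 +/-) they carried the same floxed and null alleles and no Cre, so a null Taf7 allele was common to both groups. Both came from mice of a mixed C57/BL6 and 129 background, and the cells had been sorted for abundant surface TCRbeta and CD4 and were enriched for naive cells with little CD44. The labels used here state neither the age of the mice nor how many contributed to a sample. Taf7 encodes a subunit of TFIID, the general transcription factor that binds core promoters. With 1 array per genotype there was no replicate error and no test could be run, so every difference below is a description of 2 arrays.

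Cytokine receptors on T cells are built from separate chains that come together around a ligand. A private chain gives the receptor its specificity, and a shared chain is used by several receptors. The common gamma chain serves the receptors for IL-2, IL-4, IL-7, IL-9, IL-15 and IL-21, and gp130, encoded by Il6st, serves those for IL-6, IL-27 and related cytokines. Most of these chains have no enzyme activity and signal through bound JAK kinases, which phosphorylate STAT transcription factors, whereas the IL-18 receptor signals through the adaptor MyD88. Naive CD4 T cells depend on IL-7 for survival, and the IL-2 receptor alpha chain Il2ra is abundant on regulatory T cells and on recently activated cells.

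As a group the receptor chains lay lower in the knockout sample, by small amounts. Of the 9 measured, 8 had a lower log2 signal in the knockout and 1 a higher one, and 6 or 7 were lower under other scalings of the arrays. Among all 10457 genes above the filter on low values 59.1% were lower in the values as deposited. Median centring sets the median difference of these genes to 0, so as many of them were lower as higher, beside 6 of the 9 chains. No such share is given for the remaining scalings, so the counts under them have no background here. The filter kept genes whose mean over both arrays reached the median of all rows, a log2 value of 7.71, and all 9 chains passed it. Their median difference, knockout minus heterozygote, was -0.31 on the log2 scale, against -0.05 over all genes above the filter. None of the 9 differed by 1.5-fold in either direction, where 3.17% of genes were at least 1.5-fold lower and 0.449% at least 1.5-fold higher. Since differences varied with signal, with a median of 0.14 for genes below the filter, the chains were also set beside the 5460 genes whose means lay within their own range, 9.63 to 13.14. Of those genes 65.3% were lower, 1.90% were at least 1.5-fold lower, and the median difference was -0.07. All 9 chains lay within the central 95% of these differences, -0.55 to 0.30, and 6 of the 9 lay below the 25th percentile, -0.19.

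The arrays themselves give a measure of how closely 2 probe sets of a gene repeat each other. Among 486 genes with exactly 2 clusters above the filter, the differences of the clusters were a median of 0.09 apart on the log2 scale, and 25% were more than 0.21 apart. This measures agreement between probe sets on the same 2 arrays, not the spread between mice. Each of the 9 receptor chains was read by 1 cluster, so none had such a repeat. In a bulk sample fewer cells that express a gene cannot be told apart from less RNA per cell.

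**Figure D1:**
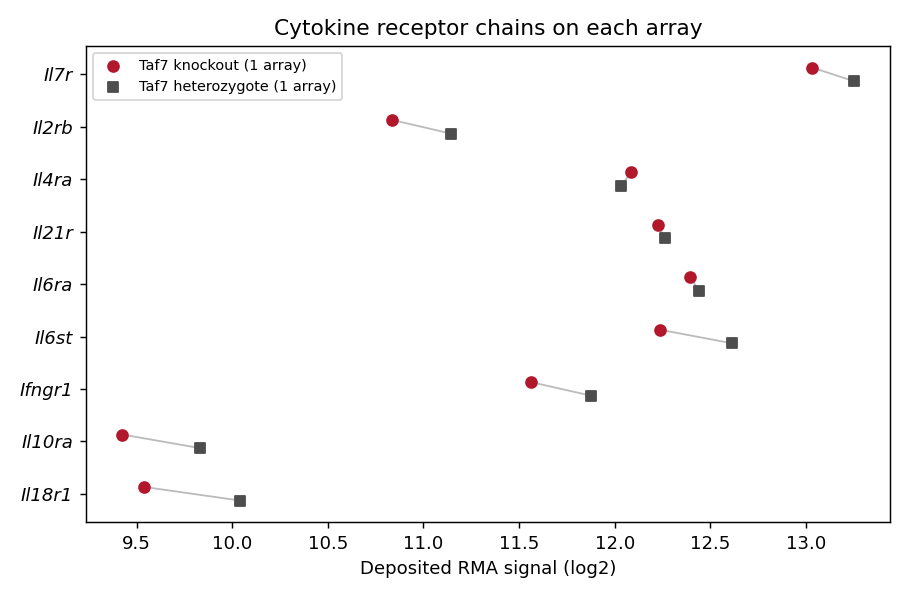
Deposited log2 signal (x axis) of the 9 measured receptor chains (rows), with a red circle for the Taf7 knockout array and a grey square for the Taf7 heterozygous array; there is 1 array per genotype and no error bar. The circle lies left of the square for 8 chains, with the widest gaps for Il18r1 and Il10ra, and right of it for Il4ra. Signals of different genes come from different probes and are not compared with each other.

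The first subset was the chains that pair with the common gamma chain. Il7r, the IL-7 receptor alpha chain, had a log2 signal of 13.03 in the knockout and 13.25 in the heterozygote. The difference of -0.22 made it 1.16-fold lower in the knockout, and it was -0.13 after quantile normalization. Il2rb, the beta chain shared by the IL-2 and IL-15 receptors, had a log2 signal of 10.84 in the knockout and 11.14 in the heterozygote. It was 1.24-fold lower, a difference of -0.31, and 14.4% of genes above the filter had a lower difference still. The remaining chains of this subset were nearly level on the 2 arrays. Il4ra, the IL-4 receptor alpha chain, was at 12.08 in the knockout and 12.03 in the heterozygote, and its difference of 0.05 was the only positive value among the chains as deposited. Il21r, the IL-21 receptor chain, was at 12.23 in the knockout and 12.26 in the heterozygote, a difference of -0.03 whose sign turned under other scalings. Il4ra and Il21r are neighbours on mouse chromosome 7 in the RefSeq gene order of GRCm38.p6.

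The second subset was the IL-6 receptor, whose 2 chains did not stand alike between the samples. Il6ra, which binds IL-6 itself, had a log2 signal of 12.40 in the knockout and 12.44 in the heterozygote, a difference of -0.04 whose sign turned after centring or quantile normalization. Il6st, the shared signalling chain gp130, had a log2 signal of 12.24 in the knockout and 12.61 in the heterozygote. It was 1.30-fold lower in the knockout, with a difference of -0.38 on the log2 scale. The ligand-binding chain was thus level while the shared chain was lower, and the gap between the 2 differences was not tested.

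The widest differences, those of Il18r1 and Il10ra, were in chains outside these families. The difference of Ifngr1, also outside them, was smaller than that of Il6st. Il18r1, the ligand-binding chain of the IL-18 receptor, had a log2 signal of 9.54 in the knockout and 10.04 in the heterozygote. At 1.42-fold lower in the knockout it had the most negative difference of the 9 chains, -0.50, with 5.07% of genes above the filter lower still. Il10ra, the ligand-binding chain of the IL-10 receptor, had a log2 signal of 9.43 in the knockout and 9.83 in the heterozygote. Its difference was -0.41, or 1.33-fold lower in the knockout. Ifngr1, the ligand-binding chain of the interferon-gamma receptor, had a log2 signal of 11.56 in the knockout and 11.88 in the heterozygote. Its difference was -0.32, close to that of Il2rb.

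**Figure D2:**
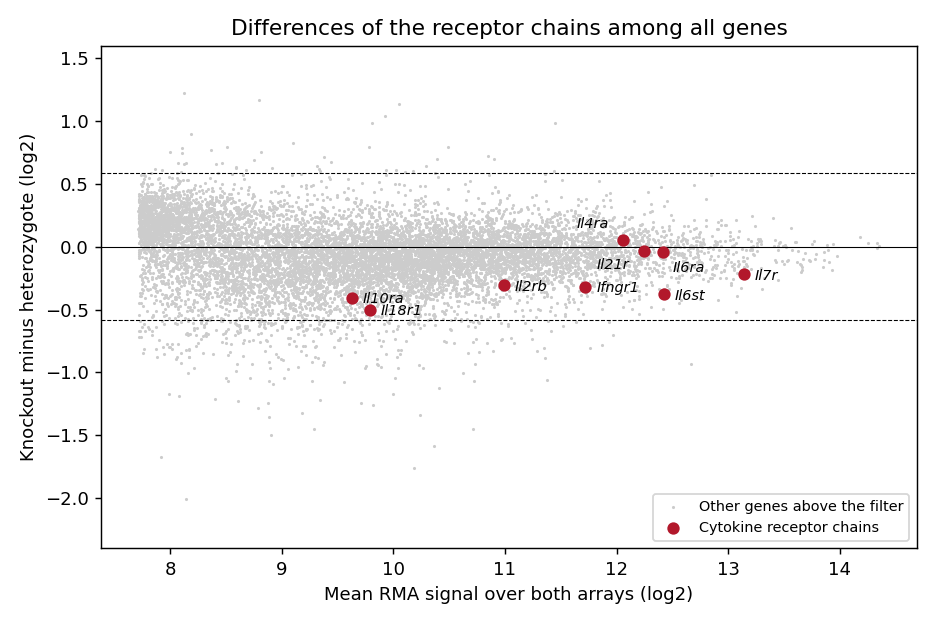
Difference in log2 signal, knockout minus heterozygote (y axis), against the mean log2 signal over both arrays (x axis) for the 10457 genes above the filter (grey points), with the 9 receptor chains in red; the dashed lines mark 1.5-fold. All 9 chains lie between the dashed lines, from -0.50 for Il18r1 to 0.05 for Il4ra.

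Because Taf7 encodes a subunit of a factor that binds core promoters, the promoter windows of the chains were read from RefSeq (build GRCm38.p6), each running from 250 bases before to 50 after a transcription start. The table held 9 windows for 7 of the 9 measured chains, 3 of them for Il18r1, of which 2 overlap, and none for Il2rb and Il10ra. Short motifs of 2 kinds were searched on both strands: TATAAA, the TATA box that TBP of TFIID binds, and TTCNNNGAA, the palindrome that several STAT factors bind. TATAAA was in 0 of the 9 windows, against 13.6% of 32851 windows over all genes at any place on either strand, and 1.99% with it on the gene strand starting 40 to 20 bases before the start, where a TATA box lies. TTCNNNGAA was in 2 of the 9, against 8.30% of all windows, and the motifs do not overlap. Shown are the window of Il7r, which holds 1 match starting 142 bases before the start; the window of Il18r1 that holds 2 matches, starting 219 and 152 bases before its start; and that of Il4ra, the only chain with a higher deposited signal in the knockout, which holds neither motif. Capitals mark TTCNNNGAA, and each sequence reads 5′ to 3′ on the strand of the gene.
Il7r, chr15:9529827-9530126, minus strand: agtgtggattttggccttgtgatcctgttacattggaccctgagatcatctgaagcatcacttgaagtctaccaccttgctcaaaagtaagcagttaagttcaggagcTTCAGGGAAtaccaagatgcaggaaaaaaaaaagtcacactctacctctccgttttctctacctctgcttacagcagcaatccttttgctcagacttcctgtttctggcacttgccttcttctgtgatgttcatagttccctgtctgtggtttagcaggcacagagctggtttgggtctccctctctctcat
Il18r1, chr1:40465756-40466055, plus strand: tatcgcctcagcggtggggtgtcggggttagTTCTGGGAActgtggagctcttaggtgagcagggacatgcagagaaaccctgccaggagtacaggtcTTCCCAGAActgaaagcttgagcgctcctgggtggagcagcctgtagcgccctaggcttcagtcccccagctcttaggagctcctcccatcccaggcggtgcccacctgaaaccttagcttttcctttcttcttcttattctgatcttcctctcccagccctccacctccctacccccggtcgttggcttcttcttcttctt
Il4ra, chr7:125552021-125552320, plus strand: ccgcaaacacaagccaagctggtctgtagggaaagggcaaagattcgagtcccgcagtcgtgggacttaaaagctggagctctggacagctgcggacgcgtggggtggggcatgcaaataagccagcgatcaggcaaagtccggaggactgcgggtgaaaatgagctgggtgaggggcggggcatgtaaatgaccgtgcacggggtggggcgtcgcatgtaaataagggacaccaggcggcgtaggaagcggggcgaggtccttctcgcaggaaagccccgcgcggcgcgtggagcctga
The GC content of these windows was 45.7% for Il7r, 57.0% for Il18r1 and 62.0% for Il4ra. A match describes these letters only, and which start these cells used was not measured.

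Set beside their partner chains above the filter, some receptors had both chains lower, whereas the chains of the IL-27 receptor differed in direction. Of the 13 partner genes listed, 12 were measured and 6 were above the filter, of which 5 were lower and 1 higher in the knockout. Among all genes above the filter 59.1% were lower. How often both chains of a receptor would be lower by that share was not tested. The median difference of the 6 partners above the filter was -0.31. It was 0.01 over all 12, because the 6 below the filter had differences between 0.00 and 0.16. Il2ra was at 10.87 in the knockout and 11.70 in the heterozygote, a difference of -0.83 and the only partner past 1.5-fold, and with Il2rb both measured chains of the IL-2 receptor were lower. Il15ra, which binds IL-15 and joins Il2rb in its receptor, was nearly level at 8.57 in the knockout and 8.61 in the heterozygote, a difference of -0.04 whose sign turned under other scalings. Crlf2, which pairs with Il7r to bind TSLP, was at 9.29 in the knockout and 9.66 in the heterozygote, a difference of -0.37.

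The interferon-gamma and IL-10 receptors had both chains lower. Ifngr2, the signalling partner of Ifngr1, was at 11.78 in the knockout and 12.02 in the heterozygote, a difference of -0.24. Il10rb, the partner of Il10ra, was at 10.73 in the knockout and 11.17 in the heterozygote, a difference of -0.43. Il27ra, which joins Il6st to bind IL-27, was higher at 12.80 in the knockout and 12.69 in the heterozygote, a difference of 0.12. Il18rap, the second chain of the IL-18 receptor, was below the filter at 6.83 on both arrays, so the partner of Il18r1 gave no value above the filter. Il9r, Il12rb2, Il13ra1, Lifr and Osmr, chains of receptors for IL-9, IL-12, IL-13, LIF and oncostatin M, were also below the filter, with differences of 0.06, 0.07, 0.11, 0.16 and 0.02, of which that of Lifr alone stayed positive under every scaling.

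**Figure D3:**
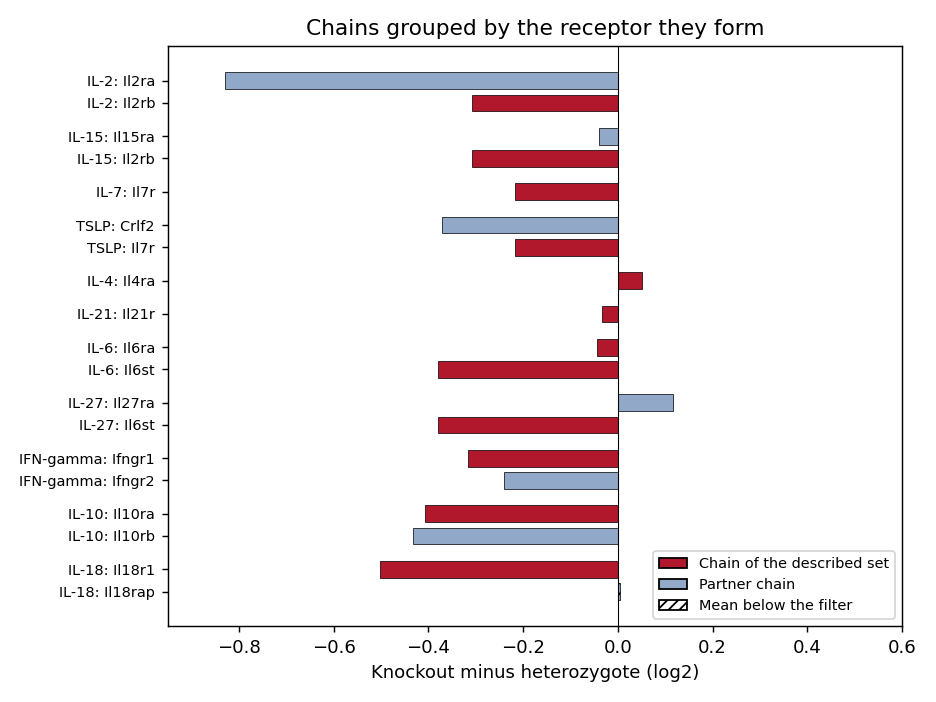
Difference in log2 signal, knockout minus heterozygote (x axis), for chains grouped by the receptor they form (rows), with red bars for the described chains, blue bars for partner chains and hatching where the mean was below the filter; Il2rb, Il7r and Il6st appear once for each receptor they join. Both chains lie below 0 for the IL-2, TSLP, interferon-gamma and IL-10 receptors, with Il2ra at -0.83; Il15ra and Il6ra lie next to 0, and their sign turned under other scalings, whereas Il27ra lies at 0.12 beside Il6st at -0.38.

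Other cytokine receptors were more evenly divided. Of 31 measured, 14 were above the filter, 7 lower and 7 higher, with none past 1.5-fold and a median difference of -0.03, which was between 0.02 and 0.03 under other scalings. The lowest were Il1rap, the shared chain of IL-1 family receptors, at -0.42 and Ifnar2, a chain of the type I interferon receptor, at -0.34. The highest were Il17rc, a chain of the IL-17 receptor, at 0.48 and Il22ra1, a chain of the IL-22 receptor, at 0.41, whose other cluster was at 0.01. Of the 15 listed ligands 14 were below the filter, and Il27, which encodes a subunit of IL-27, was at 8.55 in the knockout and 8.19 in the heterozygote.

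The kinases and factors that the chains signal through were close to level. Of the 9 JAK and STAT genes measured, all above the filter, 5 were lower and 4 higher in the knockout and none passed 1.5-fold; the median difference was -0.01, or between 0.03 and 0.06 under other scalings. Stat4, which acts downstream of IL-12, stood apart at 11.94 in the knockout and 12.47 in the heterozygote, a difference of -0.53. The kinases bound to the receptor tails lay between -0.10 and 0.03, with Jak1 at 0.03, Tyk2 at -0.07 and Jak2 at -0.10. Stat5a and Stat5b, activated by IL-2 and IL-7, were at 0.10 and -0.08. Stat3, activated by IL-6, IL-10 and IL-21, was at 0.13, Stat6, activated by IL-4, at 0.18, and Stat2, of type I interferon signalling, at -0.01; the signs of Stat2 and Tyk2 turned under other scalings.

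Feedback inhibitors and adaptors had no settled direction: 12 were lower and 6 higher of 18 above the filter, but 8 lower and 10 higher with the loess trend removed or after quantile normalization. Their median difference was -0.06, or between -0.01 and 0.02 under other scalings. Socs1, an inhibitor of JAK kinases, was the highest at 0.36, followed by the adaptor Irs2 at 0.25. The lowest was Socs2 at -0.88, but its other cluster was at 0.30, so its direction was not settled. Ptpn2, a phosphatase that acts on JAK kinases, was at -0.41 and -0.35 in its 2 clusters. Genes known to respond to these cytokines had 8 lower and 5 higher of 13 above the filter, with a median of -0.12. Irf8 at 0.63 was the only one past 1.5-fold, followed by the kinase Pim2 at 0.29, while Maf was at -0.54 and Bcl6 at -0.32. Of 8 factors known to regulate Il7r, 6 were lower in the knockout and 2 higher, where 59.1% of all genes above the filter were lower. After centring or quantile normalization 5 of these factors were lower. Their median was -0.11, or between -0.06 and -0.04 under other scalings. Gfi1, a repressor of Il7r, was at -0.29 and Gabpa, an activator, at -0.23, and at the other end were Klf2 at 0.11 and Runx1 at 0.03.

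**Figure D4:**
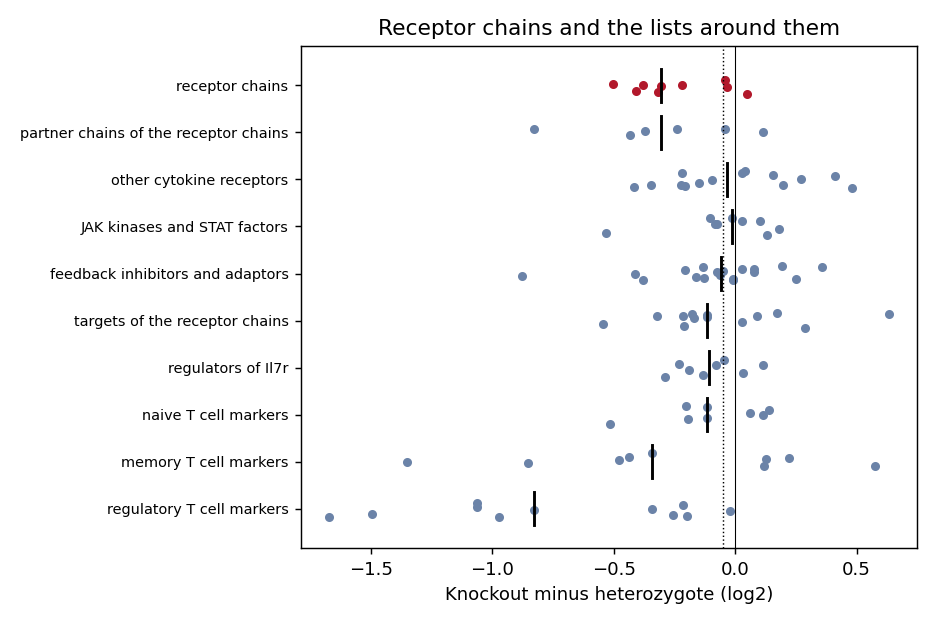
Difference in log2 signal, knockout minus heterozygote (x axis), for each gene above the filter (points, jittered vertically) in the receptor chains and the lists around them (rows); thick bars are list medians and the dotted line is the median of all genes above the filter, -0.05. The medians of the receptor chains and their partners lie at -0.31, that of JAK and STAT genes at -0.01, and that of regulatory T cell markers at -0.83.

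Markers of other T cell subsets also differed between the samples. All 11 regulatory T cell markers above the filter were lower in the knockout, 10 of them under other scalings, where Gpr83 was higher. At least 1.5-fold lower were 6 of the 11, and their median was -0.83; the linear signals of all 12 measured summed to 0.629 of the heterozygote value in the knockout. Nrp1 at -1.67 and Ctla4 at -1.50 were the lowest, and Gpr83 at -0.02 and Ikzf4 at -0.20 the least low. Nrp1 was at 7.08 in the knockout, below the filter value, and at 8.75 in the heterozygote. It thus passed the filter only through the heterozygous array. Il2ra stands in this list as well. Memory markers had 5 lower and 4 higher of 9 above the filter, with a median of -0.34, but the median over all 15 measured was 0.02 and their summed signal 0.945 of the heterozygote value. They ran from Cd44 at -1.35 and Eomes at -0.85 to Ccl5 at 0.22 and Tbx21 at 0.58. Tbx21 was close to the filter, at 8.02 in the knockout and 7.45 in the heterozygote. CD44 was also used to enrich the cells. Naive markers had 5 lower and 3 higher of 8, with a summed signal of 0.918 and a median of -0.11, or between -0.09 and -0.05 under other scalings; Dapl1 was at -0.52, Actn1 at -0.20, Klf2 at 0.11 and Igfbp4 at 0.14. Il2rb, Il18r1 and Il10ra are also expressed by regulatory or memory T cells, and the part of those cells in the lower receptor signals was not tested.

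The cells carried the listed markers of CD4 T cells, most of which other T cells also express. All 9 measured were above the filter, Cd3g at 13.45 in the knockout and 13.39 in the heterozygote and Cd247 at 12.09 in the knockout and 12.07 in the heterozygote. Their median difference was -0.17, and -0.10 after quantile normalization. Thy1 at -0.93 and Cd3d at -0.50 were the lowest. All 10 myeloid markers and 8 of 9 B cell markers were below the filter on the mean of both arrays. Their summed signals were 0.912 and 1.08 of the heterozygote values. The B cell gene above the filter, Cd79b, was at 8.23 in the knockout and 8.24 in the heterozygote. The myeloid marker Itgam was at 7.04 in the knockout and 7.83 in the heterozygote, past the filter value on the heterozygous array. The median difference over all 10 myeloid markers was 0.04. Of 7 natural killer cell markers 5 were below the filter, and Klrd1 at -1.09 and Prf1 at -0.50 were above it. The summed signal of all 7 was 0.656 of the heterozygote value, but their median difference was -0.05. The summed signal of the CD8 markers was 0.858. Cd8b1 was well above the filter at 10.24 in the knockout and 10.50 in the heterozygote, a difference of -0.26. The other CD8 marker was below the filter. Array signal has no true 0, so a low value does not show that such cells were absent. The part of any of these cells in the receptor signals was not tested. Taf7 itself was at 7.79 in the knockout and 8.34 in the heterozygote, but whether its probes cover the deleted sequence is not stated, so this value does not check the genotype.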

How the data were processed

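Total RNA of 1 Taf7 knockout and 1 Taf7 heterozygous sample was hybridised to Affymetrix arrays. Gene-level log2 signals were deposited, which the authors computed by RMA in Affymetrix Expression Console version 1.1, per the series design text and the submitters' processing notes. The median log2 signal was 7.75 on the knockout array and 7.68 on the heterozygous array. An exon array is named in the design text, but the probe table is that of a gene-level array of the same maker, and this was not settled. No source used here states a genome build or where probes lie.

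Of 35556 rows, 21789 were clusters with 1 symbol, 1621 with several and 12146 with none. Only clusters with 1 symbol were used, and the cluster of highest mean for each gene. The gene identifiers of all 9 measured chains matched those of RefSeq. No further normalization was applied. Differences are knockout minus heterozygote on the log2 scale. Gene counts used genes at or above the 50th percentile of the row means, and fixed sizes of 1.5-fold. The self-test on simulated arrays, free of noise and alike apart from planted differences, was passed. It checks the arithmetic only, not whether real differences would be found.

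Named are Taf7, every measured chain, partner chain, JAK and STAT gene, and the 2 highest and 2 lowest genes above the filter in every other list. Genes nearest in level to a chain, which the rule also named, are not reported, because levels of different probes are not comparable. The chains and lists were chosen with earlier results of these data known. The alternatives were median centring, removal of a loess trend (span 0.3), quantile normalization, the mean of clusters, no filter and a filter at the 75th percentile. The set of genes of similar mean was added after seeing the data. With 1 array per genotype the number of arrays limits the precision. Python 3.11.15 was used with pandas 2.3.3, numpy 2.4.6, matplotlib 3.10.9 and, for the loess trend, statsmodels 0.14.6.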

Additional observations from a re-analysis of the deposited data

How the results depend on the processing

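Across 6 alternative settings no receptor chain reached 1.5-fold and the number of lower chains was between 6 and 8 of 9. Their median difference was -0.26 after median centring, -0.25 with the loess trend removed and -0.24 after quantile normalization, against -0.31. Of the 9 chains 7 kept their sign under every setting that could move it. Il21r was at 0.01 after centring, 0.004 with the trend removed and 0.02 after quantile normalization, and Il6ra at 0.005 after centring and 0.03 after quantile normalization, so neither has a settled direction. The mean of clusters left the chains as they were, because each has 1 cluster. The median of the partner chains was 0.011 with no filter, which admits the 6 weak partners, against -0.31. Socs2 was at -0.29 with its clusters averaged. Of the other 58 named genes, 48 kept their sign. The genes of similar mean, chosen after the data had been seen, were lower in 65.3% of cases against 59.1%, and at least 1.5-fold lower in 1.90% against 3.17%. With 1 array per genotype there was no replicate to leave out. No paired analysis was possible since the labels give no shared number or mouse.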
